A study of Mus musculus with 12 samples.

Results

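Smad9, Atoh8, Id1 and Id3 are genes of the BMP branch of TGFβ superfamily signalling, and all 4 were listed with less mRNA in TGFβ-treated than in vehicle-treated colonies of AKR-2B mouse fibroblasts, with the deposited ratios read as TGFβ over vehicle. They were chosen, with their ratios known, from the BMP pathway genes that stood in the deposited mRNA tables. They are 4 of the 2091 genes listed at any day and 4 of 16 listed genes of a BMP pathway list, others of which lay above 1, and the ratios that chose them are given here as a description with no test. Smad9 and Atoh8 were listed at days 2, 4 and 8, and Id1 and Id3 at day 8 only. Atoh8 at day 8 had the lowest ratio of the set, 0.0108 in the authors' deposited table, and its ratio was lower at each later day.

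One set of cells had grown as anchorage-free colonies in soft agar with 25 ng/mL TGFβ, named TGFb1 in the labels. The other set had grown in the same agar with vehicle, and each was grown for 2, 4 or 8 days. AKR-2B is a single established line, so every library came from one line. Of 12 libraries 6 were of mRNA, with 1 per treatment and day. Replicate error is thus unknown for every value below, and nothing was tested.

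BMP ligands are secreted proteins that bring type I and type II receptor kinases together. The activated type I receptor phosphorylates SMAD1, SMAD5 or SMAD9, which enter the nucleus with SMAD4 and switch on genes such as those of the ID family, whereas TGFβ itself acts mainly through SMAD2 and SMAD3. ID proteins are helix-loop-helix factors without a DNA-binding basic region; they pair with basic helix-loop-helix (bHLH) factors and keep them off DNA. In fibroblasts and mesenchymal progenitors the pathway is known for steering cells towards bone and cartilage and for opposing parts of the TGFβ response.

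Each mRNA table held 499 genes above 1 and 499 below, with 1 fold change per gene and no value per library. Which library is on top is not stated in the files. TGFβ over vehicle was assumed because 9 of 24 direct TGFβ targets were listed and all of these lay above 1 (3 at day 2, 9 at day 4 and 5 at day 8). Those 24 were chosen with earlier results of these data known, so they are no independent check of the direction. Acta2 was not among them and lay below 1, at 0.056, 0.0791 and 0.0595 at days 2, 4 and 8. With the opposite reading every direction given here would turn. Library totals of the mRNA data were not used here, and any unequal depth of the 2 libraries of a day is part of every ratio. In such bulk RNA, fewer cells of a type and less RNA per cell cannot be told apart.

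The reads behind a ratio can be bounded. Of the 2994 ratios, 99.9% had a ratio of 2 odd whole numbers as their simplest form, which is what reads plus 0.5 in each library give. All 8 ratios of the 4 genes had that form. The smallest pair of reads that gives each ratio is used below, and true reads may be a larger odd multiple of the same terms. The 95% intervals are exact conditional binomial (Clopper-Pearson) intervals of these smallest pairs and cover counting error only.

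Smad9 encodes a receptor-activated SMAD of the BMP branch and is itself induced by BMP signalling. It lies on the plus strand of chromosome 3 (RefSeq, GRCm38, 54755455 to 54801662), and no other annotated gene overlaps it. Its ratios imply at least 74 reads in the TGFβ library against 801 in the vehicle library at day 2, 42 against 309 at day 4, and 36 against 386 at day 8. The TGFβ library was the lower one at every day, by a similar proportion. For Smad9 the authors' deposited table gave a ratio of 0.0930 at day 2 (95% counting interval 0.0718 to 0.117), 0.137 at day 4 (0.0960 to 0.188) and 0.0944 at day 8 (0.0644 to 0.131). The 3 intervals overlapped. With the next pair of the same ratios (223 reads with TGFβ against 2404 with vehicle at day 2, and 127 against 928 at day 4) the intervals would be 0.0805 to 0.106 at day 2 and 0.113 to 0.165 at day 4, which do not overlap, so whether the ratio differed between these days depends on reads the tables do not fix. Divided by the centre of the table's limits, the midpoint of its smallest ratio above 1 and largest below 1 on a log scale, Smad9 at day 2 was 7.04-fold lower with TGFβ, where the authors' deposited table gives 10.8-fold lower.

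Atoh8 encodes a bHLH transcription factor and lies on the minus strand of chromosome 6 (72206174 to 72235780), also with no overlapping gene. Its ratios imply at least 62 reads with TGFβ against 476 with vehicle at day 2, 8 against 122 at day 4, and 1 against 138 at day 8. The TGFβ library was lower at each day, and at day 8 it was close to having no read. In the authors' deposited table Atoh8 had a ratio of 0.131 (0.0983 to 0.170) at day 2, 0.0694 (0.0277 to 0.133) at day 4 and 0.0108 (0.000182 to 0.0410) at day 8. The day 8 interval lay below that of day 2 without overlap, while the day 4 interval overlapped both. With the next pair of each ratio the intervals would be 0.112 to 0.153, 0.0435 to 0.102 and 0.00261 to 0.0249, which do not overlap. Whether day 4 differed from the other days thus depends on reads that are not fixed by the ratios. With the same scaling to the centre of the limits, Atoh8 at day 2 was 4.99-fold lower with TGFβ, against 7.62-fold lower in the authors' deposited table.

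The day 8 value of Atoh8 rests on 1 read in the TGFβ library in the smallest pair. The next pair of the same ratio is 4 reads against 415, with an interval of 0.00261 to 0.0249. With an offset of 2 in place of 0.5 the day 8 fold was 46.7-fold lower with TGFβ, against 92.3-fold lower in the authors' deposited table. Both are further from 1 than the value of any other of the 4 genes under the same offset. The deposited ratio ranked 18 from the lowest among the 499 genes below 1 at that day. A ratio that was lower at each later day was found for 27 of the 125 genes below 1 at all 3 days, Atoh8 among them. Of these genes, 74 had at least 20 reads in 1 library at each day, as Atoh8 did. Among the 74 it was found for 21.

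**Figure D1:**
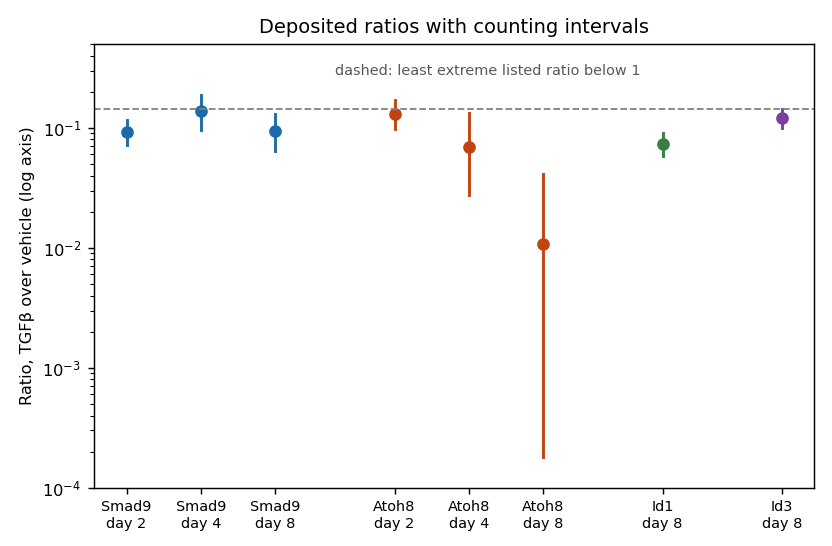
Ratio of TGFβ over vehicle (log axis) for each gene and day listed; points are the authors' deposited ratios and lines the 95% counting intervals of the smallest read pair. Smad9 stayed between 0.0930 and 0.137, while Atoh8 stood at 0.131, 0.0694 and 0.0108 at days 2, 4 and 8; the dashed line marks the least extreme listed ratio below 1, 0.143.

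Id1 and Id3 encode ID proteins, the best-known immediate targets of BMP receptors. Id1 lies on the plus strand of chromosome 2 (152736251 to 152737410) and Id3 on the plus strand of chromosome 4 (136143822 to 136145392), and neither overlaps another annotated gene. At day 8 the ratio of Id1 implies at least 96 reads with TGFβ against 1315 with vehicle. That of Id3 implies at least 126 reads with TGFβ against 1052 with vehicle. Both genes were read far more often in the vehicle library than in the TGFβ library. The day 8 ratio in the authors' deposited table was 0.0734 for Id1 (0.0587 to 0.0899) and 0.120 for Id3 (0.0988 to 0.144), with intervals that did not overlap.

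Neither ID gene was listed at day 2 or day 4, which gives no value for those days and does not show them unchanged. The least extreme listed ratio below 1 was 0.143 at each day, shared by 58 genes at day 2, 48 at day 4 and 4 at day 8. No value exists just outside that limit. Closest to it from inside were Smad9 at day 4, whose ratio was 1.04 times below the limit, Atoh8 at day 2 (1.09 times) and Id3 at day 8 (1.19 times). Id2 and Id4, the other ID genes, were listed at no day.

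Depth cancels when the ratio of one gene is divided by that of another in the same pair of libraries. Atoh8 over Smad9 gave 1.41 at day 2 (95% counting interval 0.970 to 2.04), 0.505 at day 4 (0.190 to 1.08) and 0.115 at day 8 (0.00190 to 0.472). The interval of Atoh8 against Smad9 included 1 at days 2 and 4 and lay below 1 at day 8. Also at day 8, Id1 over Id3 gave 0.610 (0.457 to 0.812), Id1 over Smad9 0.777 (0.519 to 1.20) and Id3 over Smad9 1.27 (0.863 to 1.95). The order of the ratios from lowest to highest at day 8 was Atoh8, Id1, Smad9 and Id3. The intervals of both ID genes against Smad9 included 1, while that of Id1 against Id3 lay below 1. All of these intervals rest on the smallest read pairs. Larger pairs of the same ratios would give narrower intervals, so whether those that included 1 would still do so is not fixed.

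**Figure D2:**
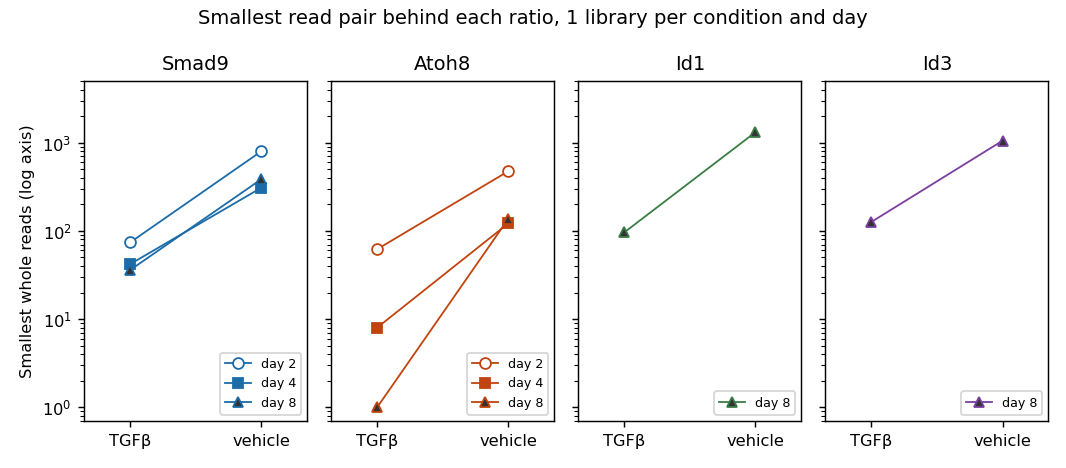
Smallest whole reads (log axis) that give each ratio, in the TGFβ and the vehicle library of each day; every point is 1 library and lines join the libraries of a day. Vehicle reads lay above TGFβ reads in all 8 pairs, and Atoh8 had 62, 8 and 1 reads with TGFβ at days 2, 4 and 8.

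Of the 4 genes, 0 lay above 1 and 2, 2 and 4 lay below at days 2, 4 and 8, where the tables by their make-up hold 50.0% of genes below 1 at each day. All 8 ratios had a larger term of at least 41, equal to at least 20 reads in 1 library; among listed genes with such a term, 69.9%, 46.1% and 54.0% lay below 1 at days 2, 4 and 8. The median ratio of the listed members was 0.112, 0.103 and 0.0839 at days 2, 4 and 8, and that of all listed genes below 1 was 0.0909, 0.0909 and 0.0792. The single values reached both ends of that side: counted from the lowest ratio, among genes below 1 with a larger term of at least 41, Atoh8 at day 8 was 18 of 228, while Smad9 at day 4 was 176 of 181, Atoh8 at day 2 was 186 of 207 and Id3 was 196 of 228. The members rested on more reads than most genes of that side. The vehicle reads of Smad9 at day 2 exceeded those of 445 of the 499 genes below 1, and those of Id1 at day 8 exceeded those of 459. By comparison the median gene below 1 had 11, 10 and 15 vehicle reads at days 2, 4 and 8, and 285, 298 and 263 genes of that side had 0 TGFβ reads in their smallest pair.

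**Figure D3:**
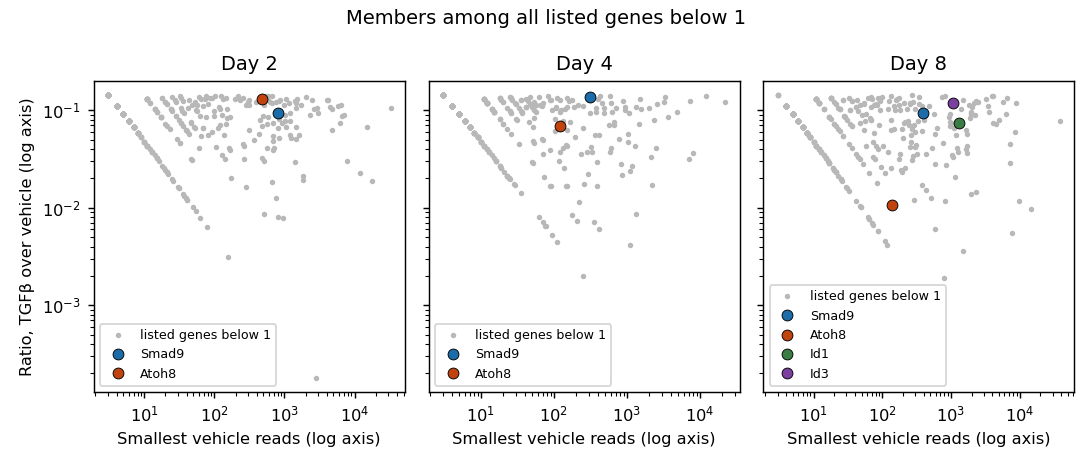
Ratio of TGFβ over vehicle against the smallest vehicle reads (both log axes) for the 499 genes below 1 of each day, with the 4 genes coloured. They lie to the right, at 122 to 1315 vehicle reads, against medians of 11, 10 and 15 at days 2, 4 and 8; the straight left edge holds genes with 0 TGFβ reads.

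The promoters of Smad9, Id3 and Atoh8 are shown because these genes lay on the same side of the tables and because short SMAD-binding motifs have been described for BMP targets. The sequences are RefSeq's for build GRCm38.p6, 5′ to 3′ on the strand of each gene, limited to bases upstream of all RefSeq transcripts of the gene, plus 30 bases around the one GC-rich match in Smad9. Capitals mark GTCT on either strand (read as AGAC on the other) and GGCGCC.
Smad9, chr3:54755332-54755454, plus strand: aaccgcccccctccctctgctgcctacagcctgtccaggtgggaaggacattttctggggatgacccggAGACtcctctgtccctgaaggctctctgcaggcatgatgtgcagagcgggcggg
Smad9, chr3:54755519-54755548, plus strand: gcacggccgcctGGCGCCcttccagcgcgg
Id3, chr4:136143572-136143821, plus strand: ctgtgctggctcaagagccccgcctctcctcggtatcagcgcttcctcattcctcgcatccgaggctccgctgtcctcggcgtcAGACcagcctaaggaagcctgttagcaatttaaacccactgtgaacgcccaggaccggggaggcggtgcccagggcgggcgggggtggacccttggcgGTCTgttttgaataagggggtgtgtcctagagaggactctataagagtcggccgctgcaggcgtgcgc
Atoh8, chr6:72235781-72235827, minus strand: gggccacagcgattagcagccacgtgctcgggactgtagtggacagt

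In windows of 300 bases, 250 before and 50 after the start, GGCGCC, a GC-rich motif bound by BMP-activated SMADs, had 1 match in Smad9 and 0 in Id3 and Atoh8; 11.9% of the 32851 promoters of the table hold it. GTCT, the short SMAD box, searched on both strands, had 2 matches in Smad9, 3 in Id3 and 0 in Atoh8, and 88.0% of promoters hold it. CAGACA, a longer form that contains the SMAD box on its other strand, had 0 matches in all 3 windows, against 21.0% of promoters. The E-box CANNTG, the site of bHLH factors, had 2 matches in Atoh8, 1 in Smad9 and 0 in Id3, against 72.3% of promoters. For Smad9 and Atoh8 the start of the window lies inside the RefSeq gene. Only 123 bases of the Smad9 window and 47 of the Atoh8 window are upstream of all RefSeq transcripts. The Smad9 match to GGCGCC is not among them. These are matches of letters in short windows and say nothing of binding.

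The rest of the BMP pathway went both ways. Of 76 genes in a list of ligands, receptors, secreted modulators, SMADs and targets, 16 were listed at any day. At day 2, 3 of them lay above 1 and 5 below; day 4 had 5 above and 3 below, and day 8 had 3 above and 7 below. Without Smad9, Atoh8, Id1 and Id3, day 2 had 3 on each side, day 4 had 5 above and 1 below, and day 8 again 3 on each side. The list held 8, 8 and 10 listed genes at days 2, 4 and 8 (10.5%, 10.5% and 13.2% of it, or 8.33% at each day without the 4 genes). Of all RefSeq protein-coding genes, whether or not fibroblasts express them, 3.92%, 4.00% and 4.05% were listed. The median ratio of the listed pathway genes other than the 4 came to 1.57, 7.67 and 2.56 at days 2, 4 and 8. With 3 genes on each side at days 2 and 8, the medians of those days fall in the gap between the sides. No listed gene has such a ratio, so these 2 medians describe an even split and no typical change.

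Among ligands, Bmp6, a secreted BMP, lay below 1 with few reads: 0 with TGFβ against 8 with vehicle at day 4, and 0 against 6 at day 8. With 0 set to 3 counts in the TGFβ library, these are 2.67-fold and 2.00-fold lower. The counting intervals of the ratio were 0 to 0.586 at day 4 and 0 to 0.849 at day 8. Gdf5, a BMP-type ligand of joints and cartilage, stood at 12 reads with TGFβ against 1 with vehicle at day 4 (ratio 8.33 in the authors' deposited table, 1.78 to 513), and Gdf6 at 1 against 0 at day 2. The ligand values all had a larger term below 41. The other 12 of 15 ligands, Bmp2, Bmp4 and Bmp7 among them, were not listed.

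The receptor Bmpr1b had the largest ratios above 1 of the pathway list at all 3 days. It encodes a type I BMP receptor that binds Gdf5 with high affinity, and it lies on the minus strand of chromosome 3 (141837135 to 142169585). Its ratios imply at least 30 reads with TGFβ against 1 with vehicle at day 2, 59 against 1 at day 4, and 54 against 0 at day 8. The TGFβ library held nearly all reads of the gene at each day. The ratio of Bmpr1b in the authors' deposited table was 20.3 at day 2 (4.99 to 1224) and 39.7 at day 4 (10.2 to 2369). With 0 set to 3 counts in the vehicle library Bmpr1b was 18.0-fold higher with TGFβ at day 8. The counting interval of that day's ratio began at 14.1 and had no upper limit. Of 12 receptors and co-receptors the other one listed was Acvrl1, a type I receptor for BMP9 and BMP10 best known from endothelium. It had 0 reads with TGFβ against 10 with vehicle at day 2 (3.33-fold lower with 0 set to 3 counts, counting interval of the ratio 0 to 0.446).

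Secreted modulators were split. Fst, encoding follistatin, which binds activins and some BMPs, implied at least 74 reads with TGFβ against 546 with vehicle at day 2 and 283 against 2297 at day 8. Its ratio in the authors' deposited table was 0.136 (0.105 to 0.173) and 0.123 (0.109 to 0.139). Fst over Smad9 gave 1.47 at day 2 (1.03 to 2.09) and 1.31 at day 8 (0.914 to 1.96), so the interval lay above 1 at day 2 and included 1 at day 8. With larger pairs of the same ratios the day 8 interval would be narrower and might not include 1. An antisense gene overlaps Fst in the GENCODE annotation, and reads from the 2 strands cannot be told apart in counts that are not stated to use strand.

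The related Fstl3, which also binds activins, lay above 1 at every day, opposite to Fst at days 2 and 8. Fst was not listed at day 4. It had at least 130 reads with TGFβ against 41 with vehicle at day 2, 200 against 14 at day 4, and 189 against 32 at day 8. These give ratios of 3.14 (2.22 to 4.62), 13.8 (8.32 to 26.6) and 5.83 (4.04 to 8.88) for Fstl3 in the authors' deposited table. Fst over Fstl3, free of depth, was 0.0434 at day 2 (0.0272 to 0.0669) and 0.0212 at day 8 (0.0136 to 0.0312). Prss57 overlaps Fstl3 on the other strand and was not listed itself.

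Chrdl1, a secreted BMP antagonist, had 0 reads with TGFβ against 8 with vehicle at day 2 (2.67-fold lower with 0 set to 3 counts, counting interval of the ratio 0 to 0.586). Kcp had 2 against 0 at day 8. The other 14 of 18 modulators, Nog and Chrd among them, were not listed.

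Of 13 SMADs and intracellular regulators, Smad9 had the company of 2 other listed genes. Skil, a TGFβ-induced repressor of SMADs, had at least 2268 reads with TGFβ against 402 with vehicle at day 4, a ratio of 5.64 in the authors' deposited table (5.07 to 6.29); it was also among the targets from which the direction was read. Zfp423, a zinc finger partner of BMP-activated SMADs, had 0 reads with TGFβ against 17 with vehicle at day 8. With 0 set to 3 counts this is 5.67-fold lower (counting interval of the ratio 0 to 0.242). Smad1, Smad5, Smad6 and Smad7 were listed at no day. Of the 18 targets the one listed besides Id1, Id3 and Atoh8 was Sp7, a bone transcription factor, with 3 reads with TGFβ against 0 with vehicle at day 4.

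**Figure D4:**
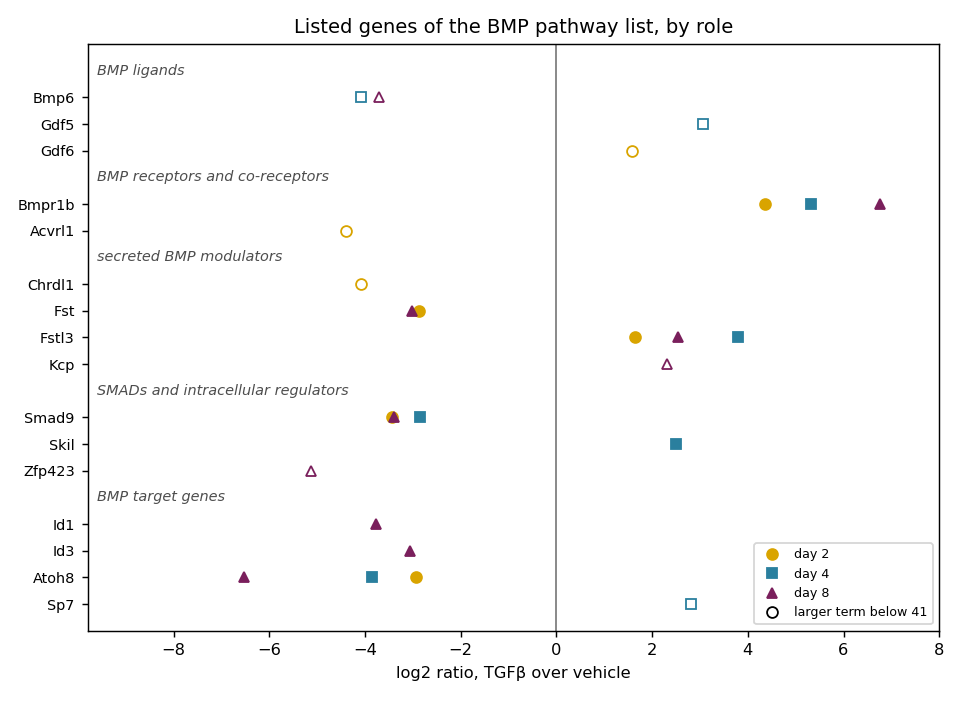
log2 ratio of TGFβ over vehicle for the 16 listed genes of the BMP pathway list, grouped by role, with 1 marker per day listed and open markers where the larger term is below 41. Smad9, Atoh8, Id1, Id3 and Fst lie left of 0 with filled markers, and Bmpr1b, Fstl3 and Skil lie right of 0.

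ID proteins act by binding other HLH factors. Of 40 bHLH genes, a list that leaves out Atoh8, 2 were listed, both above 1 at day 4, when 4.00% of all RefSeq protein-coding genes were listed, so the count stands near that share: Bhlhe22 with 10 reads with TGFβ against 0 with vehicle, and Nhlh1 with 2 against 0. Atoh8, itself a bHLH gene, lay below 1 at days 2, 4 and 8 with more reads than either. The E protein genes Tcf3, Tcf4 and Tcf12, whose products ID proteins bind, were not listed. Of 5 genes reported as repressed by ID proteins (Cdkn1a, Cdkn1b, Cdkn2a, Cdkn2b and Thbs1) 0 were listed.

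Markers of other cell types were counted because Id1, Smad9 and Atoh8 are also prominent in endothelium. Of 10 endothelial markers 5 were listed at any day, and their reads summed to at least 16 with TGFβ against 0 with vehicle at day 2, 35 against 0 at day 4 and 40 against 4 at day 8. Cdh5 made up most of them, with 15, 31 and 32 reads with TGFβ against 0 with vehicle at each day; Pecam1, Kdr and Tek were at 0 with vehicle where listed. These 4 markers lay on the opposite side to Smad9, Atoh8, Id1 and Id3, while Emcn, with 0 reads with TGFβ against 4 with vehicle at day 8, lay on the same side. Of 10 smooth muscle and pericyte markers, Acta2 was on the same side, with at least 89, 183 and 501 reads with TGFβ against 1597, 2319 and 8431 with vehicle, and Rgs5 had 0 against 64 at day 8. Mcam, with at least 174 reads with TGFβ against 29 with vehicle, and Des, with 3 against 0, were on the opposite side at day 8, where the 4 listed markers summed to at least 678 reads with TGFβ against 8524 with vehicle. The part of these cell types in the values of the 4 genes was not tested.

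Of 10 cartilage and bone markers, relevant to BMP signalling, 5 were listed at any day and the rest have no value. At day 2 there were 0, at day 4 there were 2 above 1 and 1 below, and at day 8 there were 3 above and 0 below. By make-up 50.0% of all listed genes lay below 1 at each day. Sp7 at day 4 had only 3 reads with TGFβ against 0 with vehicle. Sox9, the cartilage transcription factor, had at least 3770 reads with TGFβ against 269 with vehicle at day 4 and 2945 against 526 at day 8. Ibsp had 22 reads with TGFβ against 0 with vehicle at day 8, and Spp1 at least 73890 against 14606. Comp was below 1, with 5 against 51 at day 4. Of 10 fibroblast markers Fap alone was listed (13 reads with TGFβ against 0 with vehicle at day 8), so the tables give no check of the fibroblast label. Of leukocyte markers Itgam was listed with 0 reads with TGFβ against 4 with vehicle at day 4 and 0 against 7 at day 8. Of epithelial markers Krt8 and Cldn4 were listed, with no more than 21 reads in any smallest pair, and true reads may be more.

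The genes whose values over the 3 days were most like those of Smad9, by Euclidean distance of log2 ratios over the 235 other genes listed at all days, were Acsm4 (distance 0.09), 1110020G09Rik (0.28) and Lynx1 (0.34). Acsm4 had 0 reads with TGFβ against 5, 3 and 5 with vehicle, so its likeness rests on very few reads. Lynx1 had at least 110, 111 and 142 reads with TGFβ against 974, 894 and 1379 with vehicle, and 1110020G09Rik at least 491, 464 and 401 against 4760, 3356 and 4995. Atoh8 had no such close match, since Scara5 (1.07), Actr3b (1.27) and Ptpn22 (1.37) were its nearest. Scara5 had 3, 3 and 0 reads with TGFβ against 51, 46 and 64 with vehicle. Actr3b had 0, 0 and 1 against 3, 3 and 84, and Ptpn22 3, 11 and 0 against 33, 120 and 19. At day 8 Atoh8 and these nearest genes each had no more than 1 read with TGFβ in the smallest pair, so the distances rest on few reads too.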

How the data were processed

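Colonies were harvested at 3 times with and without TGFβ, and mRNA and miRNA libraries were made from the same kind of culture; the miRNA tables were not used here. The mRNA tables deposited by the authors hold a ratio (fold change) per gene, with the library scaling and the direction not stated. The submitters' processing notes name edgeR 3.9 and the build mm10 with no role; the aligner is not given in the sources used here, nor is the counter. The kit named in the labels' protocols does not mark strand.

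From each deposited ratio the smallest pair of odd whole numbers giving its 9 decimals (10 digits above 1) was found, and reads were taken as each term divided by 2, less 0.5. The search was tested on simulated data. Intervals are at 95%, and a count of 0 was set to 3 counts to give a fold (Python 3.11.15, SciPy 1.17.1). Such a fold is not a limit of the counting interval. Symbols were matched to RefSeq, GRCm38.p6, directly or by synonym; all 76 pathway genes were found there, and 1 further gene of the pathway is not reported here. Sequences are from the RefSeq promoter table, which matched 3 of the 4 genes. The genes named were the 4 members, every listed gene of the lists, and the 3 nearest in pattern. The members and lists were chosen with earlier results of these data known. Alternatives were scaling by the centre of each table's limits, an offset of 2, a larger term of at least 41, and exact symbols.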

Additional observations from a re-analysis of the deposited data

How the results depend on the processing

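All 8 ratios of the 4 genes stayed below 1 under both alternatives tried on them. This was fixed in advance, since no listed ratio below 1 exceeds 0.143 and neither alternative could bring such a value to 1. Dividing by the centre of each table's limits (0.655, 0.845 and 0.845 at days 2, 4 and 8) raised the day 2 ratios beyond their counting intervals, to 0.142 for Smad9 and 0.200 for Atoh8, and left the other 6 ratios within theirs; the depth of the libraries was not used here, so neither scaling was tested. An offset of 2 left all 8 ratios within their counting intervals. With a larger term of at least 41, the counts of the 4 genes could not change, since all 8 ratios have such a term. All 6 counts of pathway genes fell: those below 1 numbered 3, 2 and 5 at days 2, 4 and 8 (5, 3 and 7 with no minimum), and those above 1 numbered 2, 3 and 2 (3, 5 and 3 with no minimum), since genes with few reads dropped out. Exact symbols changed no count of pathway genes. No replicate could be left out, with 1 library per treatment and day. No paired analysis was possible because the labels give no replicate numbers and no test was run.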
